A study of Mus musculus with 6 samples.

Results

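Input chromatin, sheared chromatin sequenced without an antibody, gave its own short peak lists in cardiac neural crest cells of the mouse, and the places named in them are described here. The sites were chosen by these input peak calls themselves: all peaks of the 2 input libraries on chromosomes 1 to 19, X and Y were merged where they overlapped, which gave 579 sites among 44475 merged regions of all 6 libraries. The CHD7 lists merged into 37350 regions and the H3K27ac lists into 27871. All 6 libraries came from embryos at E10.5, mid-gestation, of male Wnt1-Cre2 mice crossed with female mTmG mice, from GFP-positive cells sorted out of pharyngeal arches 3 to 6. Of the 3 groups, one was precipitated for CHD7, a chromatin remodelling ATPase, one for H3K27ac, a histone acetylation of active promoters and enhancers, and one was input, with 2 libraries each. Wnt1-Cre2 is a Cre transgene under Wnt1 control, so GFP marks cells that descend from Wnt1-expressing cells of the dorsal neural tube and crest, whatever they later became. Nothing in the labels tells whether 2 libraries of a group derive from different litters, so a spread between libraries may be technical. Input chromatin carries no mark of a cell type, so the labelled cell type could not be checked from these sites.

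As background, a peak caller compares reads in a window with the local expectation and makes no use of an antibody, so it can also be run on input. Reads of input pile up where a genome holds more copies of a sequence than its assembly shows, as at satellite DNA, ribosomal DNA and other tandem repeats, and open chromatin at promoters can shear more readily. Lists of such places are commonly used to mask ChIP-seq peaks. Each peak carries a fold, the enrichment at its summit over the local expectation, as the authors' peak caller gave it, and a −log10 q. Read counts are not part of such lists, and sequencing depth is therefore unknown.

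No genome sequence was used here, but RefSeq promoter windows (build GRCm38.p6, 250 bases before to 50 after a start) covered part of 17 sites, and these show what some of the called bases are. In each line the bases of the site are in capitals and the flanking bases in lower case, 5′ to 3′ along the gene's strand. The first line is a promoter of 4931408C20Rik (chr1:26687411-26687710, minus strand), of which a site covered 288 of 300 bases, and the second is one of Gm40237 (chr4:118547156-118547455, plus strand), of which a site covered 226. Both sites were called in all 6 libraries.
4931408C20Rik: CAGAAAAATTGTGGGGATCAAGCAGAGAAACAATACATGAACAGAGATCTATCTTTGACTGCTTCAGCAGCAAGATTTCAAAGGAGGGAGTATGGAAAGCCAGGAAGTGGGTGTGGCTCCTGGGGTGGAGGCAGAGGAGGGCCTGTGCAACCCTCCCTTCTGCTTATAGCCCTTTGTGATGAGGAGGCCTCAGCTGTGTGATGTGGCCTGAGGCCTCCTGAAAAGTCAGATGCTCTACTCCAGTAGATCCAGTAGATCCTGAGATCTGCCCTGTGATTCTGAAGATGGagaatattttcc
Gm40237: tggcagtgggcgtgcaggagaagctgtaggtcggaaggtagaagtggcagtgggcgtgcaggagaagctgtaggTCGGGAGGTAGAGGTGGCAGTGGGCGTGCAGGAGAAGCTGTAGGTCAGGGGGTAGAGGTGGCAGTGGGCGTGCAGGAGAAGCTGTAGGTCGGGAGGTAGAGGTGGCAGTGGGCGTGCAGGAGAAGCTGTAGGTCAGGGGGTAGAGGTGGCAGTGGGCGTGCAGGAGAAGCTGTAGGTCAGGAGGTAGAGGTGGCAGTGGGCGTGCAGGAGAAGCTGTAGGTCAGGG
The Gm40237 window is a tandem repeat: shifted by 88 bases against itself, 97.6% of its bases matched. Over all 32851 promoter windows, the median of this best match, at any shift from 5 to 100 bases, was 34.0%, and 0.103% of the windows reached 70%, a limit set after seeing these values. The 4931408C20Rik window matched itself at 32.2% and is not such a repeat.

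The next lines show 4 promoters whose sites were called in input library 2 alone. They belong to B3galt6, a galactosyltransferase gene that shares this window with Sdf4 (chr4:155992629-155992928, minus strand), to Mmab, a cobalamin adenosyltransferase gene that lies head to head with Mvk, the mevalonate kinase gene (chr5:114443978-114444277, minus strand), to Wdr1, an actin-disassembly factor gene (chr5:38561650-38561949, minus strand), and to Ube2m, a NEDD8-conjugating enzyme gene (chr7:13038226-13038525, minus strand).
B3galt6: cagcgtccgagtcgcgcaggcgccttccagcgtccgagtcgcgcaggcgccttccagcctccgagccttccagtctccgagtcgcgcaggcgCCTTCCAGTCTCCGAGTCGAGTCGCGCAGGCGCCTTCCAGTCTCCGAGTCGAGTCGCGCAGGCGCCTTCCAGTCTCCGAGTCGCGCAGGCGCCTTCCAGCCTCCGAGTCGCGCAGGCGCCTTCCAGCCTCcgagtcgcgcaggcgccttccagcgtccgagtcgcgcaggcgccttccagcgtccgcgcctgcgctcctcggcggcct
Mmab: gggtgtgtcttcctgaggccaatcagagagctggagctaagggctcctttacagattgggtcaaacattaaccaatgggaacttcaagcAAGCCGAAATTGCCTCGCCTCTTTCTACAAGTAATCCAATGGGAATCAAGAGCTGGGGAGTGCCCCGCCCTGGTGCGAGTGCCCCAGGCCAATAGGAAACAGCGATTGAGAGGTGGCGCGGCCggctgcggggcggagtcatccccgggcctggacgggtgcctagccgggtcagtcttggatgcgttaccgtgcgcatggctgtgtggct
Wdr1: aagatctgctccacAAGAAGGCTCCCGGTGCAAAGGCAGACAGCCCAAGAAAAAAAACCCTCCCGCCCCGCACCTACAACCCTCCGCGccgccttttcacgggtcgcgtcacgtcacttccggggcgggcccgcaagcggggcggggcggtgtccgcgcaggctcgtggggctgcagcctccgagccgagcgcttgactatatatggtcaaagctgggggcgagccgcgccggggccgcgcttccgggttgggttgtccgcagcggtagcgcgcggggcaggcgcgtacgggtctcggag
Ube2m: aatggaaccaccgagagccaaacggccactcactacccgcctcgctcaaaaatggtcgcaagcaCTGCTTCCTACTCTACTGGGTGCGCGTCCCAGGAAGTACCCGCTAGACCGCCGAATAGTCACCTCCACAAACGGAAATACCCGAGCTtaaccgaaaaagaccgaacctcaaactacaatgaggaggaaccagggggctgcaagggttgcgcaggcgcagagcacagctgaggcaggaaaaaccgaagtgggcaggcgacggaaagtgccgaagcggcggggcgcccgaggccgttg
The B3galt6 window also repeats itself, with 71.8% of bases matching at a shift of 27 bases. The other windows shown did not, with 34.0% for Mmab, 37.3% for Wdr1 and 35.5% for Ube2m. The dinucleotide CG, which reads the same on both strands, was counted in each window, taking 1 window per site. All 11 promoter windows with a site of input library 2 alone held at least 16 CG, a number that 33.0% of all promoter windows reached, and their median was 22. The window of Mvk, which overlaps that of Mmab and was not counted a second time, held 15. The 5 windows with sites of both input libraries held 0 to 10 CG, and the median of all windows was 7. The 1 window with a site of input library 1 alone, that of Mtmr6, held 14. At least 1 CG was present in 94.6% of all windows.

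At these promoters the ChIP lists differed from site to site. The B3galt6 and Sdf4 site had a fold of 8.01 in input library 2, no CHD7 peak, and H3K27ac folds of 4.87 and 5.87 in libraries 1 and 2. At the Mmab and Mvk site the input fold was 4.48, and no ChIP library had a peak. The Wdr1 site had 4.86 in input library 2, CHD7 folds of 3.90 and 4.18, and H3K27ac folds of 4.90 and 5.71. These 3 promoters thus held H3K27ac alone, neither antibody, and both. CHD7 without H3K27ac was seen at other promoter windows. A site covering 58 bases of a Gm13822 window had CHD7 folds of 4.50 and 3.96. In CHD7 library 2 alone it was seen at Miga2 (3.82) and Fuca1 (4.22). It was also seen at a site that covered no more than 12 of the 300 bases of a Gm15564 promoter window. The Gm15564 site had input folds of 20.1 and 18.01 and CHD7 folds of 9.27 and 10.6.

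Small RNA genes added 2 more sequences. A site of input library 2 covered 59 of the 62 bases of the Mir6546 hairpin (chr1:171064591-171064652, minus strand), and a site of both input libraries covered 15 of the 19 bases of the mature RNA of Mir6236 (chr9:110281353-110281371, plus strand).
Mir6546: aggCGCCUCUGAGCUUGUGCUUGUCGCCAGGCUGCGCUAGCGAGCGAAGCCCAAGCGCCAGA
Mir6236: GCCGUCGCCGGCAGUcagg
The Mir6546 site had a fold of 5.93 in input library 2, of 4.78 and 5.68 for CHD7, and of 3.83 and 3.61 for H3K27ac. The Mir6236 site had folds of 18.3 and 16.1 in the input libraries and 12.1 and 13.3 in the CHD7 libraries, with no H3K27ac peak. It was thus among the stronger input sites and was shared with CHD7 only.

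Most sites were small, and most recurred. They had a median width of 109 bp, from 72 to 4026 bp, and covered 96982 bases in all. Both input libraries had a peak at 368 sites (63.6%), library 1 alone at 72 (12.4%) and library 2 alone at 139 (24.0%). These values, like the folds that follow, chose the sites and are a description. At the shared sites the median fold was 8.34 in library 1 and 8.59 in library 2, the fold was within 1.5 times between the libraries at 360 of 368 sites, and Spearman's rho across these sites was 0.97. The strongest peaks of both libraries lay within 50 bp of each other at 335 of the 368 sites, with a median distance of 4 bp. Sites of 1 library alone were weaker and narrower, with a median fold of 5.005 in library 1 and 5.04 in library 2 and a median width of 83 bp against 141 bp for shared sites. No site of 1 library alone had a fold above 9.77, whereas shared sites reached 38.8. With weaker input peaks left out (−log10 q under 10), 354 sites were obtained in place of 579.

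**Figure D1:**
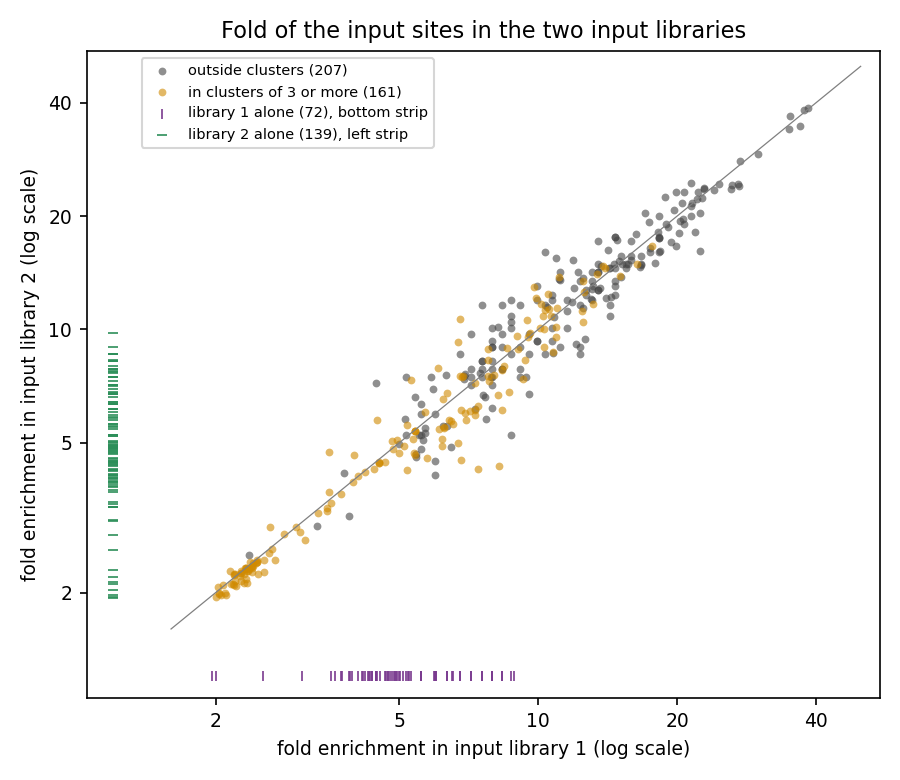
Fold enrichment of each site in input library 1 (x axis) and input library 2 (y axis), both on log scales, with the line of equal values and sites in clusters in orange. The 368 shared sites lie along the line up to a fold of 38.8, and the 72 and 139 sites of library 1 or library 2 alone (strips at the bottom and left) reach a fold of at most 9.77.

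The comparison of the ChIP lists asked how far each antibody's peaks fall on these sites, which the ChIP lists did not help to choose. CHD7 peaks lay on 390 sites in library 1 (67.4%) and 406 in library 2 (70.1%), and H3K27ac peaks on 251 (43.4%) and 233 (40.2%). Windows of 110 bp over the same chromosomes held such a peak in 0.777%, 0.666%, 0.681% and 0.639% of cases in that order, so each share was far above its background. The mean was 68.7% ± 1.95 (SD, n = 2) for CHD7 and 41.8% ± 2.20 (SD, n = 2) for H3K27ac. The gap of 26.9 points was larger than either SD, and the libraries of the groups did not overlap, but the exact permutation test, two-sided, gave p = 0.33, the smallest that 2 against 2 libraries allow. The CHD7 lists were longer, with 31873 and 26927 peaks against 24283 and 22686. With the 10000 peaks of lowest q in every list the difference was 30.1 points. It was 17.4 points when a ChIP summit had to lie in the site.

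Both CHD7 libraries had a peak at 364 sites (62.9%, against 0.46% of windows) and both H3K27ac libraries at 205 (35.4%, against 0.494%). Peaks of both antibodies fell on 254 sites (43.9%, against 0.501% of windows), CHD7 without H3K27ac on 178, H3K27ac without CHD7 on 25 and neither on 122. All 6 libraries had a peak at 149 sites. For sites with a single antibody, with neither or in all 6 libraries, no share of windows was computed. These counts thus have no background and are a description. One ChIP peak could cover several sites, as 43 and 47 CHD7 peaks and 35 and 33 H3K27ac peaks did, and its fold was then given to each.

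Coverage by ChIP peaks differed with the input fold. Among the 145 sites of lowest mean input fold (1.94 to 4.48), CHD7 lay on 53.8% and 51.7% and H3K27ac on 45.5% and 45.5%. Among the 145 of highest fold (10.45 to 38.6), CHD7 lay on 95.9% and 97.2% and H3K27ac on 59.3% and 58.6%. In between, CHD7 shares lay between these ends, while H3K27ac was lowest at folds of 6.66 to 10.4, with 29.0% and 23.4%. The group of lowest fold includes most of a cluster of 59 sites on chromosome 9 and all 10 sites of a ribosomal cluster. Both are described below, and their sites are not independent. Sites shared by both input libraries carried CHD7 in 78.8% and 81.8% of cases and H3K27ac in 49.7% and 47.3%. Those of input library 1 alone carried CHD7 in 47.2% and 51.4%, and those of library 2 alone in 47.5% and 48.9%.

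**Figure D2:**
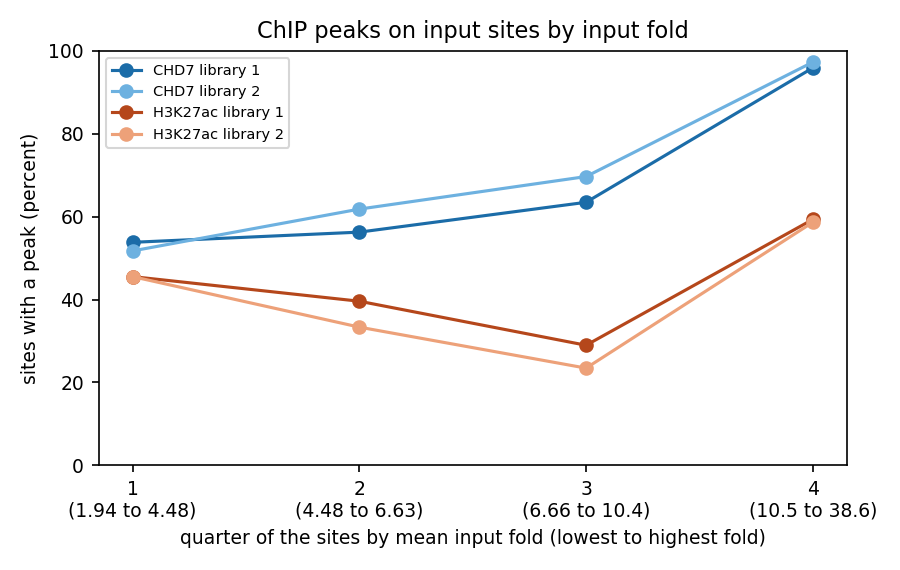
Percent of sites with a peak in each ChIP library (y axis) in 4 groups of 144 or 145 sites ordered by mean input fold (x axis, with the range of each group). Both CHD7 lines end above 95%, while both H3K27ac lines dip to 29.0% and 23.4% in the third group.

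The strongest input site lay in the gene body of 2210408I21Rik (chr13:77438912-77439055). Its fold was 38.4 and 38.8 in input libraries 1 and 2, 17.4 and 17.03 for CHD7 and 10.3 and 11.6 for H3K27ac. The next lay in Cdk5rap2, a centrosome protein gene (chr4:70378122-70378258), with 37.6 and 38.3 in input, 12.9 and 13.5 for CHD7 and 7.72 and 5.96 for H3K27ac. In Chl1, a neural cell adhesion gene (chr6:103649060-103649289), the folds were 35.2 and 36.9 in input, 18.3 and 16.5 for CHD7 and 18.3 and 17.9 for H3K27ac. The order of the input sites was thus not the order in the H3K27ac lists, where Chl1 stood above both others.

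Beyond genes, a site 35.3 kb from Pak3, a kinase gene of the X chromosome (chrX:143483004-143483114), had folds of 36.9 and 34.7 in input, 14.5 and 14.2 for CHD7 and 13.7 and 13.7 for H3K27ac. A site near the start of chromosome 12, 54.7 kb from Gm48310 (chr12:3109870-3110118), had 34.97 and 34.0 in input, 18.8 and 18.8 for CHD7 and 20.1 and 20.5 for H3K27ac. The H3K27ac peak over the latter was the strongest in both H3K27ac lists. The other 5 of the 10 strongest sites lay in Sos2, a guanine nucleotide exchange factor gene for Ras, and nearest to Gm42030, Fam107a, Gm6639 and 4930559C10Rik, with input folds between 24.1 and 29.96. All 10 had a peak in every ChIP library, and none lay in a cluster of 3 or more sites.

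The widest site spanned 4026 bp over the pseudogenes Gm10222 and Gm10925 (chr1:24611595-24615620) and was weak in every library, with folds of 3.31 and 3.01 in input, 2.94 and 2.87 for CHD7 and 2.87 and 3.14 for H3K27ac. A site of 1055 bp nearest to Gm5960 (chr15:75085977-75087031) was strong in every library, with 10.8 and 10.8 in input, 10.4 and 9.39 for CHD7 and 10.52 and 9.75 for H3K27ac. In E030030I06Rik (chr10:22142296-22143041) the folds were 14.1 and 16.3 in input, 11.7 and 11.2 for CHD7 and 7.82 and 6.95 for H3K27ac. The other 7 of the 10 widest sites, between 678 and 1060 bp, also had a peak in all 6 libraries. One of them lay in Dnah14, an axonemal dynein gene, and the others between genes. Wide sites were thus found at low and at high fold.

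At the other end stood the sites just inside the threshold of the authors' calls, since peaks just outside it are not in the lists. Sites were ranked here by the higher −log10 q of their input calls, which places sites of 1 library first. The lowest −log10 q was 1.31, at the Ube2m promoter shown above, with a fold of 3.95 in input library 2 and of 5.28 and 4.89 in the H3K27ac libraries. The next were 1.37 near Gm51599 on chromosome 8, 1.43 near Rn18s-rs5 on chromosome 17, 1.44 in Gm41091 on chromosome 14 and 1.46 near Hrh1 on chromosome 6. A site of both libraries near Gm40034 on chromosome 2 had 1.40 in library 1 but 5.58 in library 2, and so ranked higher.

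Where a ChIP peak covered a site, its fold followed the input fold. Across sites, Spearman's rho between the fold of input library 1 and that of CHD7 was 0.80 and 0.80 (324 and 338 sites), and with H3K27ac it was 0.73 and 0.73 (206 and 195 sites). With input library 2 it was 0.79 and 0.77, and 0.68 and 0.67. Outside clusters the values with input library 1 were 0.67 and 0.68 for CHD7 and 0.56 and 0.52 for H3K27ac. The points share their sequence and the authors' caller, and they are not independent, so these are descriptions. The plot of ChIP fold against input fold shows that most ChIP folds lay below the input fold, in 288 of 324 sites for CHD7 library 1 and 190 of 206 for H3K27ac library 1 against input library 1. Fold has the scale of its own list, so this order says nothing of amounts of DNA.

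**Figure D3:**
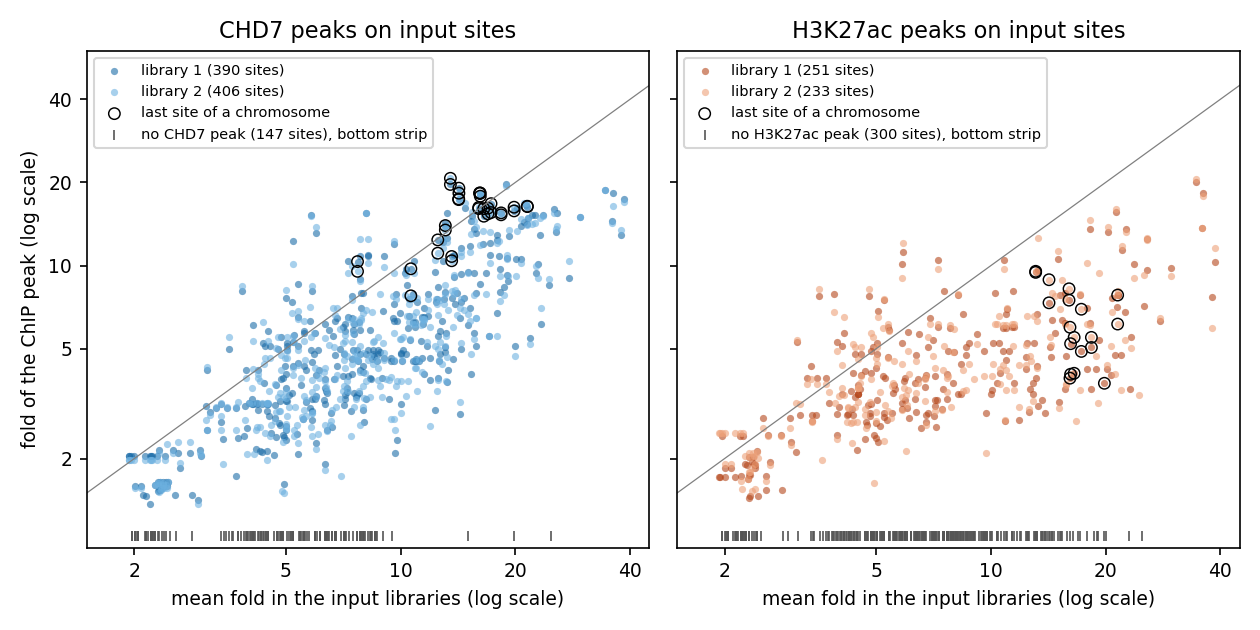
Fold of the ChIP peak on each site (y axis) against the mean input fold (x axis), both on log scales, for CHD7 (left) and H3K27ac (right), with the line of equal values. Circles mark the 17 last sites of chromosomes, which reach 20.7 for CHD7 and 9.53 for H3K27ac, and ticks at the bottom mark sites with no peak.

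The called intervals mostly lay one inside the other, while their summits coincided less often. Of the sites with a CHD7 peak, 90.8% and 89.9% lay wholly inside it, and of those with an H3K27ac peak 77.7% and 76.8%. The nearest ChIP summit was at a median distance of 73.5 and 68 bp from the input summit for CHD7 and of 88 and 85 bp for H3K27ac. It lay within 50 bp at 38.2% and 39.7% of the sites with a CHD7 peak and at 29.9% and 25.8% of those with H3K27ac. Between the 2 input libraries this share was 91.0% of the shared sites. Input peaks were narrow, with median widths of 109 and 110 bp, which itself keeps their summits close. Their share is therefore not directly comparable with those of the ChIP lists. ChIP peaks on sites were wider than the sites, with medians of 530 and 523.5 bp for CHD7 and 514 and 543.5 bp for H3K27ac.

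Seen from the ChIP lists, the sites took a small part of the peaks but most of the strongest CHD7 peaks. They held 317 of 31873 peaks of CHD7 library 1 (0.995%), 326 of 26927 of library 2 (1.21%), and 201 (0.828%) and 182 (0.802%) of the H3K27ac peaks. Of the 100 CHD7 peaks of highest fold, 76 and 74 lay on sites, and all of the 20 highest did so in both libraries. Of the 100 H3K27ac peaks of highest fold, 17 and 18 lay on sites, as did 8 and 9 of the 10 highest. The first CHD7 peak off the sites ranked 44 in library 1, with a fold of 12.5, and 47 in library 2, with a fold of 12.3, and the first H3K27ac peak off them ranked 8 in both libraries.

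**Figure D4:**
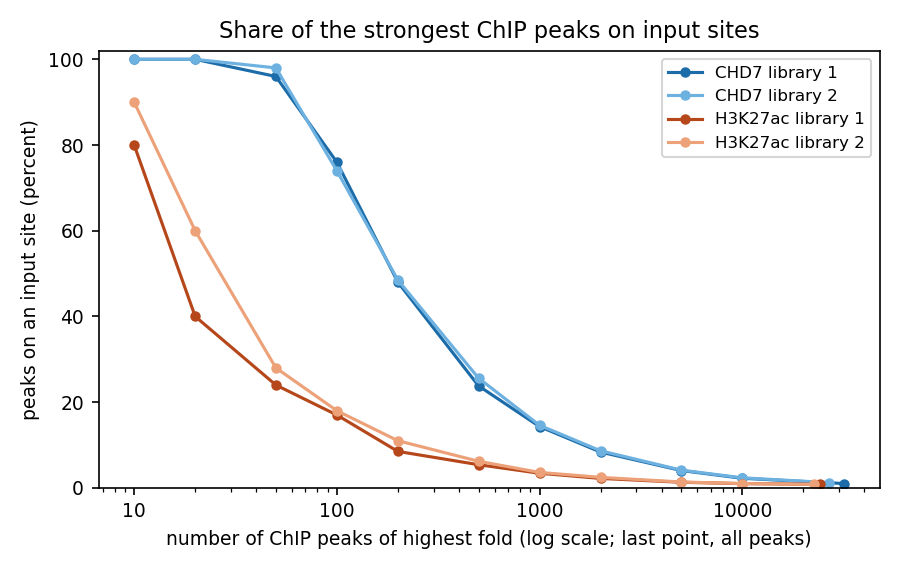
Percent of the strongest ChIP peaks that lie on an input site (y axis) against how many of the strongest are counted (x axis, log scale). Both CHD7 lines stay at 100% up to 20 peaks and are at 76% and 74% at 100, while the H3K27ac lines are at 17% and 18% there, and all lines end near 1%.

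Within each list, peaks on sites were stronger than the others. Median fold was 4.996 on and 3.18 off sites in CHD7 library 1, 5.11 and 3.23 in library 2, 3.91 and 3.59 in H3K27ac library 1 and 4.13 and 3.68 in library 2. The highest fold of a list was on a site in all 4, at 19.8 and 20.7 for CHD7 and 20.1 and 20.5 for H3K27ac, and off sites no fold exceeded 12.5, 12.3, 12.5 and 12.7. At gene ends the order was the reverse: 6.62% and 6.75% of the CHD7 peaks on sites lay there, against 42.9% and 47.2% of those off sites, and 8.46% and 7.69% against 54.3% and 55.9% for H3K27ac.

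The strongest peaks of the ChIP lists show which sites these were. In CHD7 library 1 the first 2 peaks lay on sites 80.2 and 203 kb from Asmt near the end of the X chromosome, with folds of 19.8 and 19.7, and the same sites came first in library 2 with 19.5 and 20.7. In both H3K27ac lists the order of the first 3 was the site near Gm48310, that in Chl1 (18.3 and 17.9) and one in Gm33838 (chr9:35305215-35305586), with folds of 15.7 and 16.1. A site in Vps45, a vesicle-sorting gene, ranked 5 and 4, with 13.6 and 14.6. Of the 2 sites near Asmt, the first had H3K27ac folds of 4.24 and 4.69 and the second had no H3K27ac peak. The site near Gm48310 was among the first 5 in all 4 lists.

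Sites were spread over every chromosome but unevenly. Chromosome 9 held 80 sites (13.8%) and chromosome 15 held 6, which is 0.659 and 0.0598 per Mb of the span between the first and last peak. The other chromosomes ranged from 0.109 on chromosome 3 to 0.370 on chromosome 17. Counted as places, with sites joined where the gap to the next was at most 10 kb, chromosome 9 held 19, within the 5 to 27 of the other chromosomes.

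**Figure D5:**
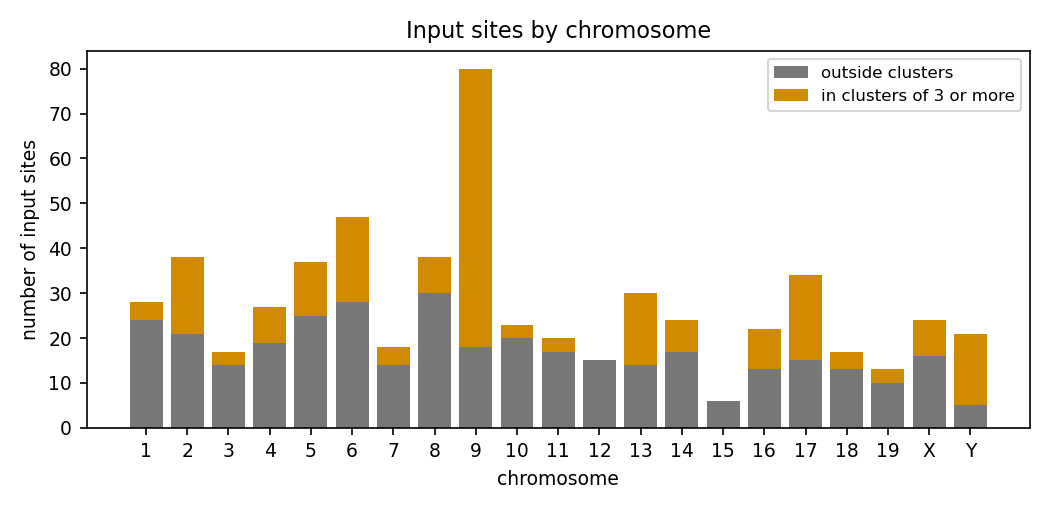
Number of input sites on each chromosome, split into sites in clusters of 3 or more (gaps of at most 10 kb) and sites outside them. Chromosome 9 stands out with 80 sites, 62 of them in clusters, and chromosome 15 has 6 and no cluster.

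In all, 34 clusters of at least 3 sites held 225 of the 579 sites (38.9%), and 286 sites had no neighbour within 10 kb. Sites in clusters were weaker, with a median input fold of 4.83 against 7.88 outside them. With peaks merged over gaps of up to 1 kb, 13.5% of the sites were in clusters, since that joins the close sites of which clusters consist.

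The largest cluster began at the first called bases of chromosome 9 (chr9:3000030-3038260), where 59 sites lay within 38.2 kb, with a median gap of 378 bp and no annotated gene. The nearest gene was Mir101c, 408 bp away. Both input libraries had 55 of these sites, at a median fold of 2.33 and 2.28, and CHD7 peaks lay on 31 and 25 of them and H3K27ac peaks on 27 and 25. ChIP folds were low here, with medians of 1.602 and 1.63 for CHD7 and 1.92 and 2.00 for H3K27ac.

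A cluster of 13 sites lay near the end of the Y chromosome (chrY:90717511-90744818) and overlapped Gm52481. Median input folds were 5.71 and 5.59, and CHD7 peaks lay on 7 and 10 sites but H3K27ac peaks on 2 and 1. The third cluster, of 10 sites, lay at Rn18s-rs5, a ribosomal RNA sequence listed as a pseudogene, and AY036118 (chr17:39843056-39848265). A single CHD7 peak in each CHD7 library, with folds of 2.04 and 1.97, covered all 10 sites, and H3K27ac peaks with folds between 1.56 and 2.48 covered 9 of 10 in each library. Input folds were 1.94 to 2.55. This ribosomal cluster was thus called in each of the 6 libraries, at low fold in all of them.

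The next clusters had 8 sites each. One lay 62.5 kb from Hrh1, a histamine receptor gene (chr6:114545797-114572969), with CHD7 on 4 and 4 sites and H3K27ac on 5 and 5. The other spanned Gm51598 and Gm51599 (chr8:55497798-55519377), with CHD7 on 3 and 3 sites and no H3K27ac. Over the 225 clustered sites, CHD7 lay on 64.4% and 67.6% and H3K27ac on 48.9% and 45.8%, and over the 354 sites outside clusters on 69.2% and 71.8%, and 39.8% and 36.7%.

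The far ends of chromosomes formed a second pattern, looked for after the strongest sites had been seen. On 17 of 21 chromosomes the last input site lay within 1 kb of the end of the last peak in any of the 6 lists. The exceptions were chromosomes 4, 9, 15 and Y, and chromosome 15 had no site in the 0.5 Mb before its last peak. All 17 sites were in both input libraries, at folds of 7.95 to 20.7 in library 1 and 7.47 to 23.2 in library 2. All 17 had a CHD7 peak in both libraries, at folds of 9.74 to 19.7 and 7.77 to 20.7. An H3K27ac peak lay on 10 and 9 of them, at 3.75 to 9.45 and 4.04 to 9.53. The last peak ended beyond each of these sites, so it came from a ChIP list. A ChIP peak at them was thus partly built into the choice, and the count of 17 with CHD7 is a description.

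On the X chromosome the last site (chrX:170881071-170881235) had input folds of 14.7 and 12.3, CHD7 folds of 19.7 and 20.7 and no H3K27ac. That of chromosome 11 (chr11:121982379-121982541) had 13.5 and 14.9 in input, 19.1 and 18.3 for CHD7 and no H3K27ac. That of chromosome 1 (chr1:195371729-195371968) had 16.7 and 15.7 in input, 17.8 and 18.3 for CHD7 and 5.21 and 4.04 for H3K27ac. The CHD7 folds stood at or above the input folds at these 3 sites, which are among the last sites of highest CHD7 fold. At other last sites, such as those of chromosomes 3 and 16, the CHD7 folds lay below the input folds. Over all 17 the median fold was 14.7 and 15.7 in input and 16.1 and 16.1 for CHD7. Of the 100 strongest CHD7 peaks, 17 in library 1 and 16 in library 2 lay on these last sites, against 1 and 1 of the 100 strongest H3K27ac peaks. In the 0.5 Mb before the last peak of any list on each chromosome lay 55 sites (9.50%). Each ChIP list had between 0.653% and 0.691% of its peaks there. Of these 55 sites, 18 were on the Y chromosome, 8 on chromosome 2 and 6 on chromosome 19, and 29 lay in clusters. This share thus rests largely on a few chromosomes.

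Most sites lay between genes. Of 579, 33 (5.70%) lay within 1 kb of an annotated end of a protein-coding gene, 125 (21.6%) in gene bodies and 421 (72.7%) between genes. The share of the genome in each of these places was not computed, so the shares can be read only against the ChIP lists. Of all CHD7 peaks, 42.5% and 46.7% lay at gene ends in libraries 1 and 2, 28.6% and 27.1% in gene bodies and 28.9% and 26.2% between genes. At gene ends lay 53.9% and 55.5% of all H3K27ac peaks. Sites of input library 2 alone were at gene ends in 17 of 139 cases (12.2%), those of library 1 alone in 4 of 72 (5.56%) and shared sites in 12 of 368 (3.26%). Without input library 2 the share was 3.77%. Pseudogenes overlapped 2.94% of the sites, against between 0.512% and 0.551% of the peaks of the ChIP lists.

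Among the gene-end sites, that of highest mean input fold lay at Asmt, the gene of the last enzyme of melatonin synthesis, in the pseudoautosomal region (chrX:170673277-170673545). It had folds of 20.7 and 23.2 in input, 5.48 and 5.19 for CHD7 and 4.72 and 3.56 for H3K27ac. A site at Lars2, the mitochondrial leucyl-tRNA synthetase gene (chr9:123461919-123462177), had 18.8 and 22.5 in input, 13.9 and 14.7 for CHD7 and 4.02 and 5.09 for H3K27ac. At Wls, a carrier of WNT proteins (chr3:159939423-159939677), the folds were 20.7 and 19.1 in input, 15.8 and 16.3 for CHD7 and 3.75 in H3K27ac library 1, with no peak in library 2, and this site is also the last of its chromosome. All 3 were chosen after their values were seen. Their input folds were close together, whereas the CHD7 folds at Asmt lay far below those at the other 2.

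Sites were also counted near genes of fixed lists. Over all protein-coding genes, 232 of 21776 (1.07%) had a site within 10 kb. None of 20 neural crest genes had one, Chd7, Sox10, Tfap2a, Twist1 and Hand2 among them, and neither did any of 5 markers each of cardiomyocytes, endothelium, blood, and epithelium and endoderm. None of the loci tied to the alleles of the mouse lines, Wnt1, E2f1 and Gt(ROSA)26Sor, had one. With so low a share over all genes, an absence in lists of this size is not a result about them. The share was computed for protein-coding genes, not for the kinds of genes in the next 2 lists, so these counts have no matching background. Of 11 ribosomal and abundant non-coding RNA genes found in the gene table, Rn18s-rs5 and Rny3 had sites, and of 17 genes in duplicated, ampliconic or pseudoautosomal sequence, Erdr1, Mid1 and Pisd-ps1. Mid1 spans the pseudoautosomal boundary of the X chromosome. Of 3 sites near Erdr1, the strongest, 5918 bp away (chrX:170004497-170004607), had input folds of 13.8 and 14.8, CHD7 folds of 2.90 and 3.22 and no H3K27ac peak. The nearest, 3446 bp away (chrX:170022244-170022400), had 5.44 and 4.66 in input, 3.23 and 2.86 for CHD7 and 2.295 in H3K27ac library 1. The third had a fold of 4.46 in input library 1, of 2.13 and 1.97 for CHD7 and of 2.15 and 2.72 for H3K27ac. The site nearest to Mid1 (chrX:169994561-169994647) had 8.18 and 6.68 in input, 2.98 and 2.41 for CHD7 and 3.02 and 3.00 for H3K27ac.

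Some strong input sites had no ChIP peak at all. Of the 140 sites with a fold of at least 10 in both input libraries, 3 were in no ChIP list. They lay 12.9 kb from Abcb11, the bile salt export pump gene (chr2:69355544-69355657), with input folds of 26.2 and 23.5, 56.9 kb from 4933402J10Rik (chr5:60042920-60043046), with 20.3 and 19.4, and 32.1 kb from Eea1, an endosome tether gene (chr10:96077625-96077723), with 15.5 and 14.6. The other 137 had CHD7 in 135 and 137 cases and H3K27ac in 84 and 83. In Myo3a, a myosin gene, a cluster of 6 sites of both input libraries (chr2:22587751-22590187), with input folds of up to 13.2 and 12.2, had no CHD7 peak in library 1, 4 sites with CHD7 in library 2 at up to 3.67, and no H3K27ac. Over all 368 shared sites, 51 (13.9%) were in no ChIP list.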

How the data were processed

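The analysis started from 6 deposited peak lists, 1 for each library of CHD7, H3K27ac and input, with 2 libraries in each group. The submitters' processing notes name MACS2 2.1.2, the aligner Bowtie2 2.3.3.1, Picard, bcl2fastq 2.18.0.12 and the build mm10. Filters and the control of each peak call are not given in the sources used here. In the deposited lists each peak has a score, a fold (a ratio over the local expectation at the summit) and −log10 values of p and q, all as the authors' peak caller wrote them. Fold and q were used, the fold only within a list or side by side.

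Lines of 1 peak with several summits were joined, keeping the highest fold. Peaks on the mitochondrial genome and unplaced sequence were left out of the sites. Input peaks of both libraries were merged where they overlapped, and an overlap with a ChIP peak needed 1 bp. Genes, promoter windows and miRNAs came from RefSeq tables of GRCm38.p6, the mm10 assembly. Background shares come from windows of 110 bp, about the median site width. Python 3.11.15, numpy 2.4.6, pandas 2.3.3 and scipy 1.17.1 were used, and the scripts were tested on simulated data.

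The only test compared the CHD7 with the H3K27ac libraries by exact permutation, two-sided. Its p-value is the smallest that 2 against 2 libraries allow and measures no spread. It concerns these libraries alone, since nothing says they came from separate animals. Peak lists give no read depth, so no counting error could be given. Named sites were the 10 of highest fold in both inputs, the 10 widest, the 5 largest clusters, the 5 of lowest −log10 q, the 5 strongest in all 6 libraries and the 5 strongest without a ChIP peak. Others are named for a list, a printed sequence, a ChIP list's strongest peaks or a chromosome end. The sites, lists and rules were chosen with earlier results of these data known. Alternatives changed the input threshold, merging, overlap, linking distance, gene distance, number of top peaks and libraries.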

Additional observations from a re-analysis of the deposited data

Results flagged for a closer look

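Peaks outside chromosomes 1 to 19, X and Y were not part of the sites. Input library 1 had 101 of them (18.3% of its peaks) and input library 2 had 106 (17.2%). In library 1, 6 lay on the mitochondrial genome and 95 on unplaced sequence, of which 61 were on the single contig JH584304, and in library 2 the numbers were 9, 97 and 63. Their median fold was 2.80 and 2.69 and their highest 46.4 and 47.4, above the highest fold of any site. The CHD7 lists had 68 and 75 such peaks (0.213% and 0.278%) and the H3K27ac lists 27 and 32 (0.111% and 0.141%). No control library stands beside the input libraries, and what these peaks come from was not tested.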

How the results depend on the processing

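The difference between CHD7 and H3K27ac in the share of sites with a peak, 26.9 points, kept its direction under all 17 alternatives, from 17.4 points with a summit in the site to 33.1 with input peaks of −log10 q of at least 10. Leaving out 1 library in turn gave 25.4 to 29.3 points. With library numbers as a replicate block it was 26.9 points with p = 0.5 by an exact sign test, the smallest p that test can give here. It was the same with crossed numbers. Both settings are among the 17 and change only the test, so their difference was fixed in advance. The labels do not say whether the numbers pair libraries of different groups. Across 149 sites in all 6 libraries, deviations of same-numbered libraries had r of −0.0502 (input and CHD7), 0.0512 (input and H3K27ac) and −0.103 (CHD7 and H3K27ac). Folds at these sites cannot show whether same-numbered libraries share a litter or day.

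Keeping only sites of both input libraries, input peaks of −log10 q of at least 5 and of at least 10 changed several values. The number of sites, 579, was 368 with both libraries and 354 at 10, and 451 to 512 without 1 input library. The share in both libraries, 63.6%, was 72.3% at 5 and 73.7% at 10. The share in clusters, 38.9%, was 36.7% with both libraries, 34.5% at 10, 13.5% with peaks merged over 1 kb, and 35.6%, 46.3% and 49.7% with gaps of 5, 50 and 100 kb. Without 1 input library it was 37.9% to 40.4%. The share at gene ends, 5.70%, was 3.26% with both libraries, 3.83% at 5, 2.54% at 10, 7.11% with the 1 kb merge, 7.63% without clusters, 4.15% within 500 bp and 10.2% within 2.5 kb, and 3.77% to 5.66% without 1 input library.

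The mean share of CHD7 peaks on sites, 1.10%, was 0.835% with both libraries, 0.807% at 10, 0.807% without clusters and 0.937% to 1.01% without 1 input library. For H3K27ac, 0.815% became 0.600% with both libraries, 0.681% at 5, 0.568% at 10, 0.547% without clusters and 0.681% to 0.740% without 1 input library. The share of the 100 strongest CHD7 peaks, 75%, was 72.5% with both libraries, 73.5% at 10, 73.5% without clusters, 72.5% to 75% without 1 input library, 97% for the 50 strongest and 48.25% for the 200. For H3K27ac, 17.5% was 26% for the 50 strongest and 9.75% for the 200. Settings that filter or merge input peaks, or leave out clusters or a library, hold fewer sites by construction; otherwise the cause was not tested. Leaving out clusters and crossing the numbers were chosen after seeing the data. Depth is unknown, so how far it limits the sites of 1 library was not tested.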

Other observations

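The starts of chromosomes also held sites. In the 0.5 Mb from base 3000000, near where sequence begins in the assembly, lay 88 of 579 sites (15.2%), 60 of them on chromosome 9 and 28 on others, so that 9 chromosomes had any. The ChIP lists had 0.376% to 0.397% of their peaks there. A site lay under 28.3% and 29.0% of those peaks for CHD7 and under 23.9% and 23.9% for H3K27ac. On chromosome 16 there were 9 sites, on chromosome 4 there were 5, and on chromosomes 11 and 18 there were 4 each.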
